A study of Danio rerio with 5 samples.

Results

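Chemokine ligands, chemokine receptors and the tetraspanin gene cd9b were examined in the upper digestive tract of adult zebrafish. They were found by name, as every probe set (a group of short probes for 1 transcript) whose single symbol in the platform annotation began with ccl, cxcl, cxcr or ccr followed by a digit, or was cd9b. This gave 14 of the 15502 probe sets for genes on the array, which stand for 13 of the 8793 genes with a name of their own there: 9 ligands, 3 receptors and cd9b. No probe set with a single symbol was named for a receptor of the ccr group, so the receptors of most of the ccl ligands were not analysed here.

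The study set 3 pools of zCdx1b transgenic fish against 2 pools of wild-type fish, on 1 array per pool. All fish were of AB background and 3 months old, and each pool held tissue of 3 fish. The transgene carried zebrafish Cdx1b, a caudal homeobox factor of the intestine, and EGFP behind a zebrafish keratin 5 promoter fragment, zK5p, and had been put into AB* eggs with Tol2. Keratin 5 is a gene of stratified epithelium, so the transgene's own driver belongs to that tissue; how many founder lines were used is not given here. No probe set was named cdx1b, so the level of the transgene was not checked.

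Chemokines are small secreted proteins that guide migrating cells by binding receptors coupled to G proteins. Cxcl12 and its receptor Cxcr4 steer germ cells, the lateral line primordium, blood vessels and leukocytes in zebrafish, and the receptor Ackr3 removes Cxcl12 without the usual G protein signal. In mammals, CCL25 is a chemokine of the small intestine and the thymus that draws lymphocytes bearing CCR9, CCL19 acts in lymphoid tissue through CCR7, and CCL27 and CXCL14 are made by stratified epithelium. CD9 is a tetraspanin, a membrane protein that gathers integrins and other tetraspanins at the cell surface.

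Values are the deposited log2 values, and each change is the transgenic mean minus the wild-type mean. The pools are the replicates, so the p-values rest on the spread between pools. The limma fit also draws the spread of each probe set toward that of others of like brightness. In whole tissue, fewer cells of a type, less RNA per cell and a different make-up of organs in the pools cannot be told apart. A background bound was set for each array at the highest value of 44 bacterial and tag control probe sets, and it lay between 3.72 and 3.95 on the transgenic arrays and at 3.64 and 4.13 on the wild-type arrays. Wild-type pool 2 had the highest bound and the fewest probe sets above it (62.4%). Transgenic pool 1 came next on both, with 65.2% above its bound of 3.95, against 70.1% to 72.0% on the remaining arrays. The tissue labels were set against marker genes. The intestinal genes vil1 and fabp2 read 8.89 to 9.54 and 12.62 to 12.82 in transgenic pools, and vil1 was close to the bound in wild-type pools, at 3.77 and 3.81, where fabp2 read 7.52 and 6.03. The squamous gene tp63 read 3.90 to 4.87 in transgenic pools, with pool 1 below its bound, and 7.57 and 7.18 in wild-type pools.

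Most of the chemokine and receptor genes tested, and cd9b, fell in transgenic pools, and none of them rose. Of the 13 probe sets tested, 9 fell past a limma adjusted p of 0.05, and they stand for 8 genes: cxcl12a (both of its probe sets), ccl25b, cd9b, cxcr4a, ccl27a, cxcr4b, cxcr3.3 and ccl19a.1. Over all probe sets tested, 21.8% passed in either direction, 11.7% passed as lower and 10.1% as higher. All transgenic arrays lay below both wild-type arrays for 12 of these 13 probe sets, against 30.8% of all probe sets tested, and the overlapping one was ccl34b.1. The remaining probe set, ccl44, was too dim for the filter on low values. cxcr4a passed that filter through the wild-type arrays alone, and ccl27a reached it on 1 transgenic array beside both wild-type arrays, so the selection favoured a difference for these genes.

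**Figure D1:**
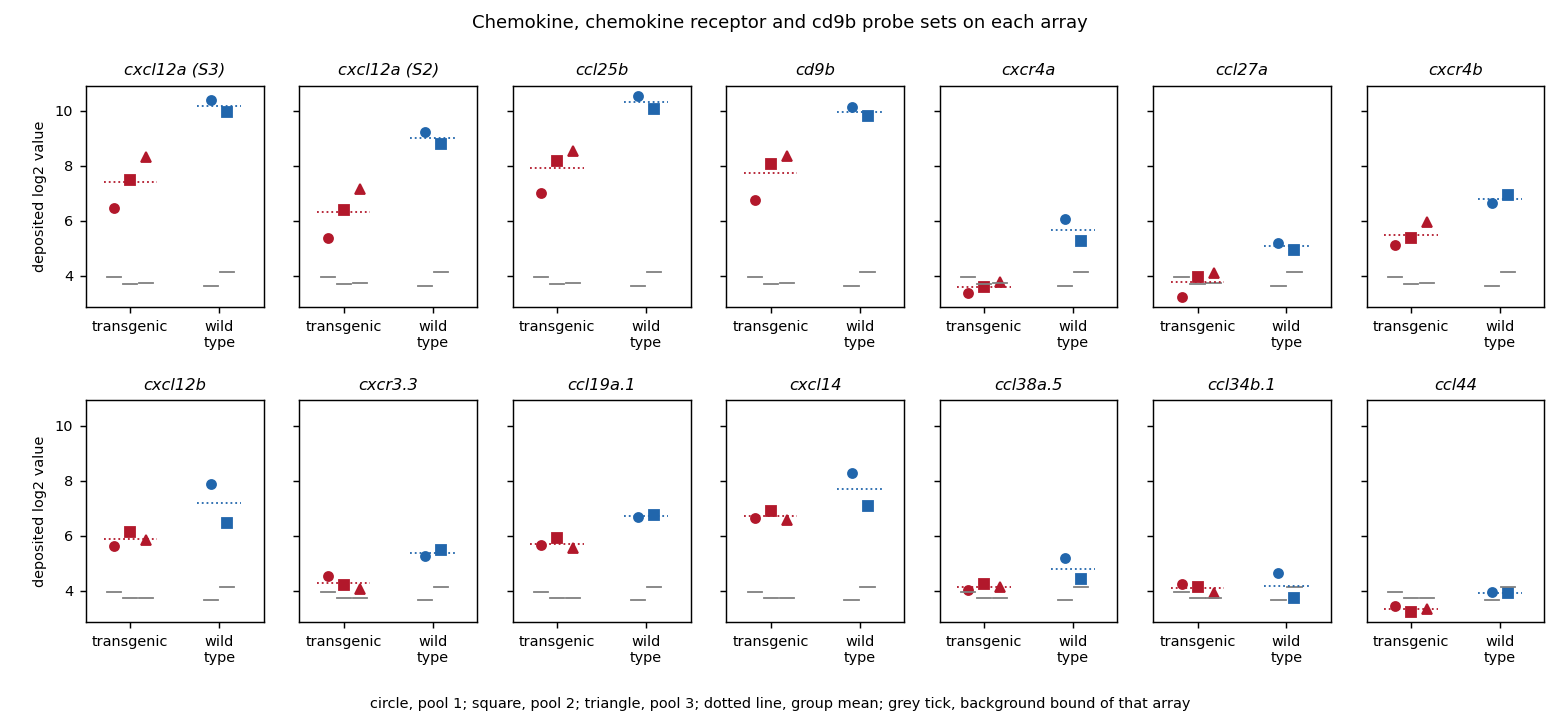
Deposited log2 value (vertical axis) of each of the 14 probe sets on the 3 transgenic and 2 wild-type arrays; points are pools, dotted lines are group means and grey ticks are the background bound of each array. The transgenic points lie below the wild-type points in every panel except that of ccl34b.1, and those of cxcr4a and ccl44 lie at or near the bound.

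The chemokine with the largest fall was cxcl12a, the ligand of Cxcr4 receptors. Its probe set ending in S3 read 6.45, 7.49 and 8.31 in transgenic pools, against 10.40 and 9.97 in wild-type pools. The other probe set, ending in S2, read 5.39, 6.38 and 7.14 in transgenic pools, against 9.24 and 8.80 in wild-type pools. Every transgenic pool lay below both wild-type pools on both probe sets, and pool 1 was the lowest. The changes of cxcl12a were -2.77 (SE 0.54, limma adjusted p = 0.0167), which is 6.81-fold lower, and -2.72 (SE 0.52, limma adjusted p = 0.0166), 6.57-fold lower. Only 0.851% and 0.958% of all probe sets tested had a larger fall. Both calls were lost without wild-type pool 1, with limma adjusted p = 0.0915 and 0.0874 at changes of -2.56 and -2.50, and also without the other wild-type pool, with 0.0599 and 0.0565 at -2.98 and -2.93.

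The paralogue cxcl12b read 5.62, 6.13 and 5.85 in transgenic pools, against 7.89 and 6.44 in wild-type pools. The groups did not overlap, but the wild-type pools were far apart, and the change of -1.30 (SE 0.46) did not pass, with a limma adjusted p of 0.0963. With wild-type pool 2 left out the change was -2.02 and passed (limma adjusted p = 0.0206), and without wild-type pool 1 it was -0.58 (0.19). It also passed after quantile normalization (limma adjusted p = 0.0386).

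The ligand gene ccl25b was second among the chemokine genes in the size of its fall. It read 7.00, 8.17 and 8.55 in transgenic pools, against 10.54 and 10.06 in wild-type pools. All 5 values stood well above the background bound, and the highest transgenic pool was below the lower wild-type pool. Its mean was 7.91 ± 0.80 in transgenic pools (SD, n = 3) and 10.30 ± 0.34 in wild-type pools (SD, n = 2). The change was -2.40 (SE 0.48, limma adjusted p = 0.0183), or 5.26-fold lower, and it stayed between -1.94 and -2.71 with any 1 array left out. The call was lost when wild-type pool 1 (-2.15, limma adjusted p = 0.0973) or pool 2 (-2.64, 0.058) was left out.

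The ligand genes ccl27a and ccl19a.1 fell by less. ccl27a read 3.22, 3.97 and 4.11 in transgenic pools, against 5.21 and 4.95 in wild-type pools, with transgenic pool 1 below its background bound. Its change was -1.31 (SE 0.30, limma adjusted p = 0.028), and the call was lost without transgenic pool 2 (limma adjusted p = 0.0633), wild-type pool 1 (0.116) or wild-type pool 2 (0.0716). ccl19a.1 read 5.65, 5.90 and 5.55 in transgenic pools, against 6.69 and 6.74 in wild-type pools. Both groups of ccl19a.1 were tight, with SDs of 0.18 in transgenic pools (n = 3) and 0.037 in wild-type pools (n = 2), and its lowest transgenic pool was pool 3. The change of ccl19a.1 was -1.02 (SE 0.23, limma adjusted p = 0.0281), and it was lost without transgenic pool 1 (limma adjusted p = 0.0802), pool 2 (0.126) or pool 3 (0.0987).

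The other ligands did not pass. cxcl14 read 6.62, 6.91 and 6.56 in transgenic pools, against 8.27 and 7.09 in wild-type pools, a change of -0.98 (SE 0.39, limma adjusted p = 0.136). It passed without wild-type pool 2 (-1.57, limma adjusted p = 0.0227) and after quantile normalization (0.041), and was at -0.39 without wild-type pool 1. ccl38a.5 read 4.02, 4.25 and 4.12 in transgenic pools, against 5.19 and 4.42 in wild-type pools, a change of -0.67 (SE 0.26, limma adjusted p = 0.123), and it too passed without wild-type pool 2 (-1.05, limma adjusted p = 0.0246). For both genes, as for cxcl12b, wild-type pool 1 was the higher wild-type pool, and the wild-type pools lay farther apart than the transgenic pools. The transgenic readings of ccl38a.5 lay near the bound, which limits the size of its change. ccl34b.1 read 4.22, 4.12 and 3.92 in transgenic pools, against 4.62 and 3.74 in wild-type pools, near the bound in both groups, with a change of -0.09 (SE 0.29, limma adjusted p = 0.864). ccl44 read 3.42, 3.23 and 3.31 in transgenic pools, all below the bound, against 3.94 and 3.91 in wild-type pools, of which only pool 1 was above it, so no fold is given for ccl44.

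Among the receptors, cxcr4a fell most. It read 3.39, 3.60 and 3.78 in transgenic pools, against 6.07 and 5.25 in wild-type pools. The transgenic pools were close together at the bound, with 2 of 3 at or below it, while both wild-type pools were clear of it. With the transgenic values below the bound set at it, cxcr4a was at least 3.60-fold lower in transgenic pools. The fit on the values as deposited gave a change of -2.07 (SE 0.28, limma adjusted p = 0.00527), and limma adjusted p of 0.00691 to 0.0196 with 1 array left out. Since readings at the bound hold little of the spread between pools, this SE and these p-values are no measure of how stable the fall is.

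Its paralogue cxcr4b, the Cxcr4 receptor of the lateral line primordium and germ cells, read 5.11, 5.36 and 5.96 in transgenic pools, against 6.64 and 6.92 in wild-type pools. No transgenic pool reached a wild-type pool, and the change was -1.30 (SE 0.32, limma adjusted p = 0.0344). The call of cxcr4b was lost without transgenic pool 1 (limma adjusted p = 0.0742), transgenic pool 2 (0.151), wild-type pool 1 (0.0751) or wild-type pool 2 (0.1). cxcr3.3, which in zebrafish is a macrophage receptor that takes up ligands without the usual signal, read 4.54, 4.20 and 4.04 in transgenic pools, against 5.24 and 5.47 in wild-type pools. Its change was -1.09 (SE 0.21, limma adjusted p = 0.0176), and it was lost without transgenic pool 2 (limma adjusted p = 0.0935) or wild-type pool 2 (0.0566). In cxcr3.3 transgenic pool 3 was the lowest, where in cxcr4b pool 1 was.

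The scavenger receptor gene ackr3b, outside the name rule, fell as well. It read 4.25, 4.81 and 4.93 in transgenic pools, against 6.14 and 5.47 in wild-type pools, a change of -1.15 (SE 0.31, limma adjusted p = 0.0465). That call sat at the threshold: it held in 1 of 5 fits with an array left out, where the limma adjusted p reached 0.15 without wild-type pool 1 (-0.81), and it was lost without transgenic pools 1, 2 or 3, with median centring, with no filter and with no trend. The other gene tested among 16 further chemokine and receptor genes listed was the cytokine gene mif, at -0.48 (limma adjusted p = 0.312).

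The tetraspanin gene cd9b read 6.77, 8.06 and 8.38 in transgenic pools, against 10.14 and 9.80 in wild-type pools. The groups were separated by more than 1 log2 unit, and transgenic pool 1 was the lowest, as for ccl25b and cxcl12a. The mean of cd9b was 7.74 ± 0.85 in transgenic pools (SD, n = 3) and 9.97 ± 0.24 in wild-type pools (SD, n = 2). The change was -2.23 (SE 0.49, limma adjusted p = 0.0251), or 4.70-fold lower. The call of cd9b was lost when wild-type pool 1 (-2.06, limma adjusted p = 0.114) or pool 2 (-2.40, 0.0765) was left out.

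**Figure D2:**
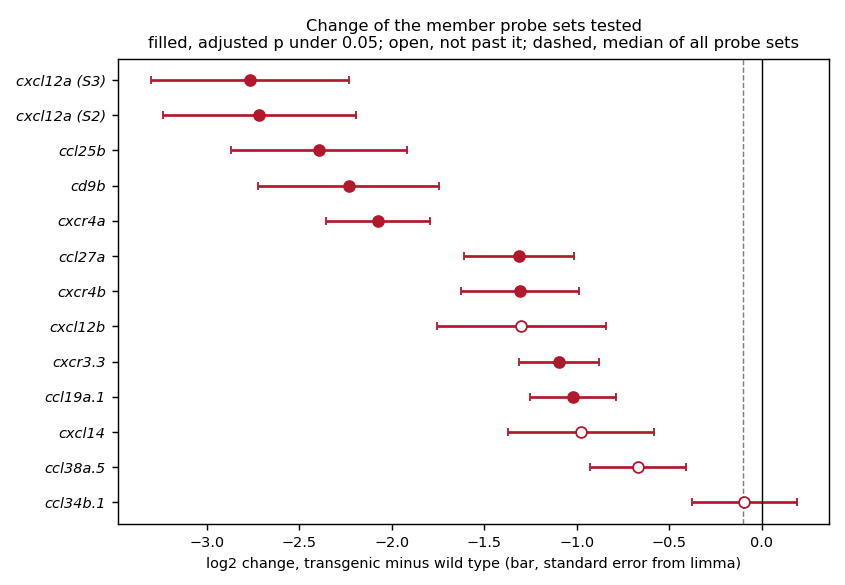
Log2 change of the 13 probe sets tested, transgenic minus wild type (horizontal axis), with the standard error from limma as bars; filled points passed an adjusted p of 0.05 and the dashed line is the median of all probe sets tested, -0.10. cxcl12a, ccl25b, cd9b and cxcr4a lie beyond -2, and the rest lie between -1.31 and -0.09; the point of cxcr4a includes transgenic readings at the background bound.

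The count of probe sets that fell depended on single arrays. Leaving out transgenic pool 1, 2 or 3 gave 7, 5 and 8 of the 13, and leaving out wild-type pool 1 or 2 gave 3 and 5. Without wild-type pool 2 only 2 of the 5 were among the 9 (cxcr4a and ccl19a.1), and the other 3 (cxcl12b, cxcl14 and ccl38a.5) passed in that fit alone among those with an array left out. In the fits without a wild-type pool, the lone wild-type array is assumed to vary like the transgenic ones. cxcr4a read at or below the bound in 2 of 3 transgenic pools, so its calls in the fits with an array left out are no measure of stability. The changes of the 9 probe sets that passed stayed negative in every such fit, and with wild-type pool 1 left out those still past the threshold were cxcr4a, cxcr3.3 and ccl19a.1.

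**Figure D3:**
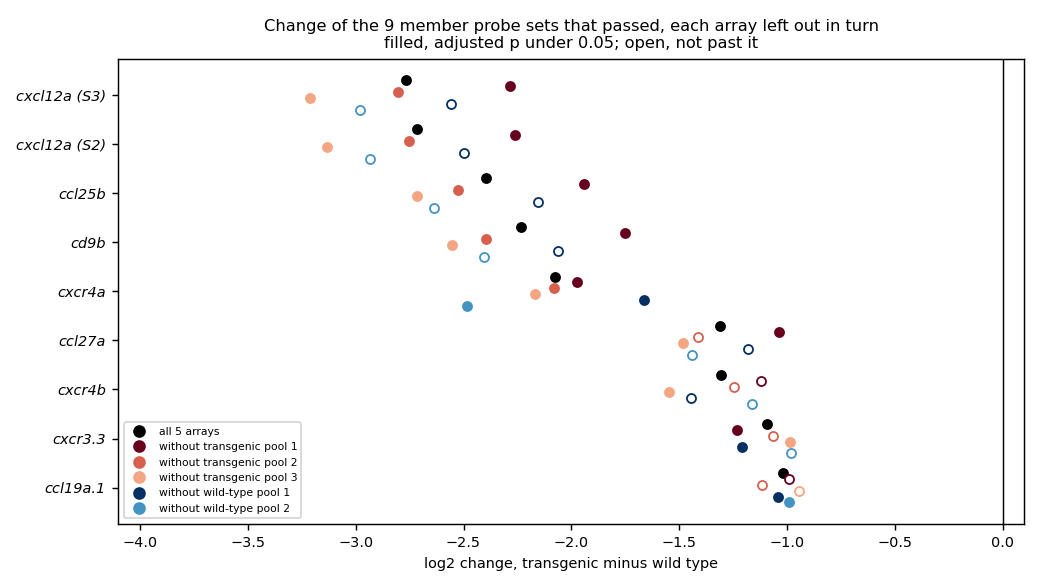
Log2 change (horizontal axis) of the 9 probe sets that passed, with all 5 arrays and with each array left out in turn; filled points have an adjusted p under 0.05. The points of each gene stay together on the negative side, while the points without a wild-type pool are open for cxcl12a, ccl25b and cd9b and filled for cxcr4a. The points of cxcr4a include transgenic readings at the background bound, so their fill is no measure of stability.

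Paralogues and ligand probe sets were compared by their difference within each array, in 5 pairs. An exact two-sided permutation test over 3 and 2 arrays cannot go below p = 0.1, so none of these could pass. For cxcr4a minus cxcr4b the log2 difference was -1.71, -1.77 and -2.18 in transgenic pools, against -0.56 and -1.67 in wild-type pools, and the 2 changes differed by -0.77 (exact permutation p = 0.1, adjusted over the pairs 0.25). Wild-type pool 2 lay close to the transgenic pools for this pair, and wild-type pool 1 stood apart from all of them. The transgenic differences of this pair are set in part by the bound, at or below which cxcr4a read in 2 of 3 transgenic pools. For cxcl12a minus cxcl12b the changes differed by -1.47 and -1.42 with either cxcl12a probe set (exact permutation p = 0.2, adjusted 0.25). The cxcl12a probe sets differed in their change by -0.05 (exact permutation p = 0.3), and ccl25b differed from cd9b by -0.16 (exact permutation p = 0.1, adjusted 0.25).

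Several of these genes varied together between the transgenic pools. Transgenic pool 1 was the lowest and pool 3 the highest for 7 of the 9 probe sets that fell, with cxcr4a at the bound among them, the exceptions being cxcr3.3 and ccl19a.1. The same held for 49.2% of all probe sets that fell and for 26.7% of all probe sets tested. Relative to the wild-type mean, ccl25b was at -3.30, -2.13 and -1.76 in pools 1, 2 and 3, and cd9b was at -3.20, -1.91 and -1.59. The cxcl12a probe set ending in S3 was at -3.73, -2.69 and -1.88.

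Marker genes of other tissues moved in the same pools. Of 26 squamous epithelium markers tested, 21 fell, 0 rose and 5 missed the threshold, at a median change of -2.03 and medians of -2.72, -1.79 and -1.63 in transgenic pools 1, 2 and 3. Their summed linear level was 6527 to 11849 in transgenic pools and 35600 to 36161 in wild-type pools. pkp1b, of desmosomes, had a change of -3.89 and col17a1b, of hemidesmosomes, of -3.53, and both calls were lost without wild-type pool 1 or pool 2, as was that of the annexin gene anxa1c, which a robust trend also ended, with limma adjusted p of up to 0.156. Of 32 striated muscle markers, 0 rose and 10 fell, with a median of -2.34 (-1.52 without transgenic pool 1). The median was -4.07, -1.84 and -1.14 in the 3 transgenic pools. Their summed level was 4516 to 24030 in transgenic pools and 46644 to 49253 in wild-type pools. In transgenic pool 1 col17a1b read 3.78, below the bound of 3.95, as did several muscle markers, which limits the size of their falls there. The squamous and muscle lists were both lowest in transgenic pool 1, as ccl25b, cd9b and cxcl12a were. This was not particular to them. Neutrophil medians were -1.46, -1.13 and -0.68 in transgenic pools 1, 2 and 3, and erythrocyte medians -1.07, -0.25 and 0.52. Pan leukocyte (-0.87, -0.66 and -0.74), macrophage and B cell medians were lowest in pool 1 too. The T and NK cell median was lowest in pool 3, and endothelial, intestinal, pancreas and hepatocyte medians were highest in pool 1. The part of these lists in the falls of ccl25b, cd9b and cxcl12a was not tested.

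Digestive lists moved the other way. Of 18 intestinal absorptive markers 17 rose and 1 fell (median 5.81), with summed levels of 53377 to 62236 in transgenic pools and 457 to 601 in wild-type pools. All 15 exocrine pancreas markers tested rose (median 8.14), with sums of 60575 to 70270 in transgenic pools and 183 to 275 in wild-type pools. Of 23 hepatocyte markers 21 rose and 0 fell (median 5.69, or 4.99 with the 16 genes below the bound in wild-type pools set at that bound), with sums of 32795 to 42064 in transgenic pools and 2042 to 2293 in wild-type pools. ccl25b, whose mammalian counterpart is made by intestinal epithelium, fell in the same pools in which these intestinal genes rose. Whether transgenic and wild-type pools held the same organs in the same shares was not tested.

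Most chemokines act on leukocytes, whose marker lists had medians on both sides of 0. Of 13 pan leukocyte markers, 3 fell, 0 rose and 10 missed the threshold, at a median of -0.76 beside -0.10 over all probe sets tested. The 3 that fell make 23.1% of the list, beside 11.7% of all probe sets tested. The summed level of the 13 markers was 2656 to 3284 in transgenic pools and 6174 to 7272 in wild-type pools. cd74a and cd74b were the brightest genes of the list and weigh most in that sum. In wild-type pools cd74a read 11.70 and 11.71 and cd74b 10.99 and 10.89, against 10.09 to 10.54 and 9.28 to 9.78 in transgenic pools. No sum without cd74a and cd74b was made. The antigen presentation genes cd74a and cd74b had changes of -1.33 and -1.37 (limma adjusted p = 0.00366 and 0.00559), and both passed in every fit with an array left out. The myeloid factor gene spi1b fell by 0.99 (limma adjusted p = 0.0325), and was lost in 4 of 5 such fits, with adjusted p of up to 0.132 without transgenic pool 2. The leukocyte phosphatase gene ptprc, which did not pass, read 6.19, 6.40 and 6.18 in transgenic pools, against 7.39 and 6.64 in wild-type pools. The list median was -0.37 with wild-type pool 1 left out and -1.30 with wild-type pool 2 left out, and the part of leukocyte content in the chemokine falls was not tested.

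Of 11 neutrophil markers, 1 rose and 3 fell, with a median of -1.14. The 3 that fell make 27.3% of the list, beside 11.7% of all probe sets tested. Sums over the list were 7917 to 8652 in transgenic pools and 4592 to 8456 in wild-type pools. The S100 family gene s100a10b (-2.30) and the metalloproteinase gene mmp13a (-2.03) were among those that fell. Both calls were lost without wild-type pool 1, and that of s100a10b also without wild-type pool 2 or with a robust trend. The call of mmp13a was also lost without transgenic pool 2. The other that fell was nccrp1, at -1.73 (limma adjusted p = 0.00467), and its call was not followed with an array left out. The riser was cpa5, a carboxypeptidase gene, at 7.23. Pancreas markers, which include other carboxypeptidase genes, rose in the same pools (median 8.14), and the source of the cpa5 signal was not tested. Without cpa5 the other 10 markers, all with a lower mean in transgenic pools, summed to 1084 to 2737 in transgenic pools and 4564 to 8391 in wild-type pools. s100a10b, at 11.84 and 11.13 in wild-type pools, was the brightest of them there and weighs most in that sum. The changes of the 10 ran from -2.30 for s100a10b to -0.24 for cebpb and -0.08 for mpx (limma adjusted p = 0.933), whose groups overlapped. The lysozyme gene lyz (-2.08, limma adjusted p = 0.236) and the metalloproteinase gene mmp9 (-2.09, 0.131) did not pass. Which cells gave the falls in this list was not tested. Of 10 macrophage markers, 4 rose and 0 fell (median 0.56), with sums of 6622 to 7582 in transgenic pools and 1563 to 2517 in wild-type pools. Its largest rises were apoc1 (6.31), a lipoprotein gene also made by liver, slc7a7 (3.01), an amino acid transporter gene, and the lysosomal protease gene lgmn (2.17). Which cells gave these rises was not tested. Without apoc1 the sums were 3595 to 3711 in transgenic pools and 1526 to 2466 in wild-type pools. Of the genes left, lgmn was the brightest in transgenic pools and weighs most in that difference. It read 10.59 to 10.82 there, against 9.01 and 8.10 in wild-type pools, and no sum without lgmn was made. The 6 markers that missed the threshold had changes of -0.52 (marco), -0.47 (ctss2.2), -0.39 (c1qc), 0.11 (grna), 0.17 (cd68) and 0.95 (ctss2.1).

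Of the 4 T and NK cell markers tested none passed (median -0.59), and 1 of them, polr1g, was reached through the older symbol cd3eap and is a polymerase subunit gene. Their sums were 132 to 176 in transgenic pools and 163 to 468 in wild-type pools. Neither of 2 B cell markers passed (median 0.12). Of 4 endothelial markers 1 fell (median -0.22), fli1rs at -0.73, a call lost with any array left out, while the endothelial receptor gene kdrl read 6.19 to 6.40 in transgenic pools and 6.53 and 6.05 in wild-type pools. Of 11 erythrocyte markers 1 fell (median 0.04), nt5c2l1 at -1.21, which was lost in 4 of 5 fits with an array left out, with limma adjusted p of up to 0.131. No list held a marker listed at 0, since the deposited values have no zero.

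**Figure D4:**
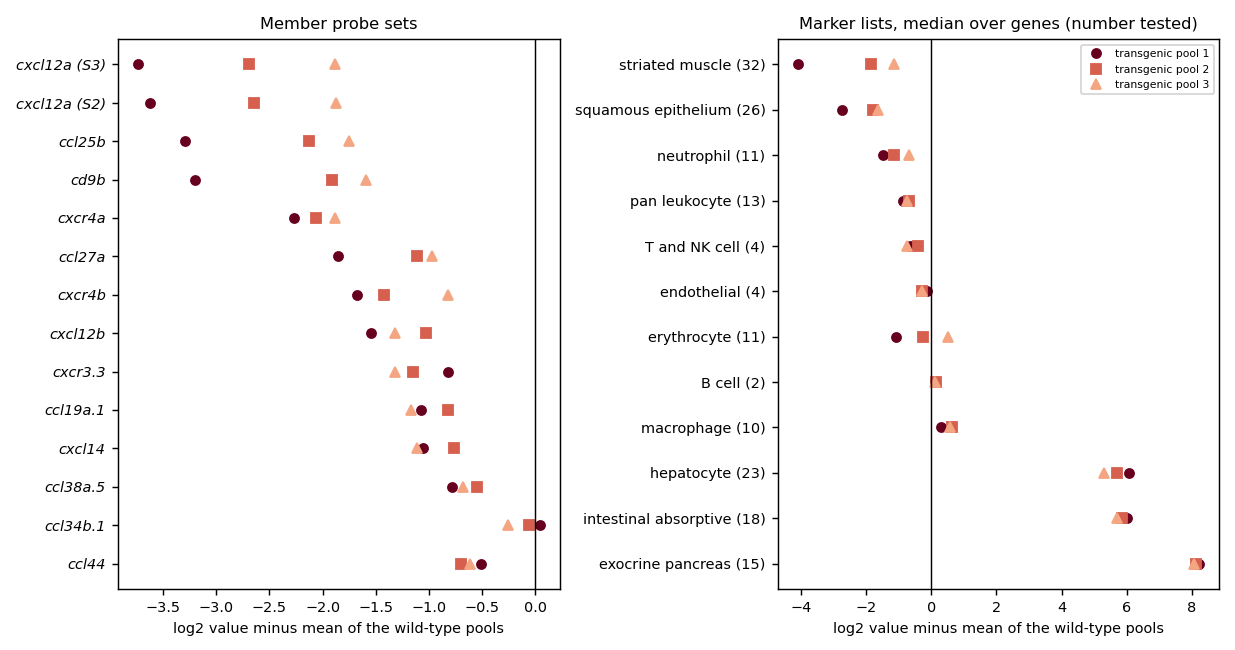
Log2 value of each transgenic pool minus the mean of the wild-type pools (horizontal axes), for the 14 probe sets on the left and as the median of each marker list on the right; circles, squares and triangles are transgenic pools 1, 2 and 3. Pool 1 lies farthest left for cxcl12a, ccl25b and cd9b and for the striated muscle and squamous epithelium lists. It also lies farthest left for the neutrophil, erythrocyte, pan leukocyte, macrophage and B cell lists.

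Genes that act below chemokine receptors were mostly not past the threshold. Of 60 tested among 132 listed signalling genes, 7 fell, 2 rose and 51 missed the threshold, at a median of -0.29 beside -0.10 over all probe sets tested. The 7 that fell make 11.7% of the genes tested in the list, beside 11.7% of all probe sets tested. The largest were the G protein subunit genes gng13b (-1.5), gnai1 (-1.39) and gnb1a (-1.17) and the regulator rgs12b (-1.43). gng13b read 4.06, 4.07 and 4.00 in transgenic pools, against 5.79 and 5.30 in wild-type pools. gng13b and rgs12b passed with each transgenic array left out in turn. The transgenic readings of gng13b lay not far above the bounds of 3.95, 3.72 and 3.74, so this is a limited measure of its stability. By contrast, gnai1 was lost without transgenic pool 2 or 3 (limma adjusted p of up to 0.102). gnb1a was lost without any of the transgenic pools (up to 0.138). The risers were the adaptor gene grb2a (1.38) and the kinase gene pak1 (1.34), and grb2a was lost without transgenic pool 2 or either wild-type pool (up to 0.134).

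Relatives and partners of cd9b were mixed. Of 24 tetraspanin and partner genes tested, 5 fell, 1 rose and 18 missed the threshold, at a median of -0.33. The 5 that fell make 20.8% of the genes tested in the list. Over all probe sets tested, 11.7% fell and the median was -0.10. The uroplakin gene upk1a, a tetraspanin of epithelial plaques in mammals, fell by 3.01 (SE 0.38, limma adjusted p = 0.00401), and read 3.86, 4.80 and 4.78 in transgenic pools, against 7.79 and 7.19 in wild-type pools. The integrin gene itga6b, a hemidesmosome gene that also stands on the squamous list, fell by 2.13. With 1 array left out the changes stayed between -3.31 and -2.70 for upk1a and between -2.46 and -1.81 for itga6b. In transgenic pool 1 upk1a was below the bound of 3.95 and itga6b read 3.98, so these ranges are a limited measure of stability. The tetraspanin gene tspan34b read 3.71 in that pool, below the bound too. tspan34b (-2.1) and cd81a (-1.34), which encodes a close partner of CD9, fell as well, and these were lost without transgenic pool 2 or either wild-type pool, with limma adjusted p of up to 0.147. The riser was tspan31, at 1.27, which was lost in 4 of 5 fits with an array left out (up to 0.138).

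**Figure D5:**
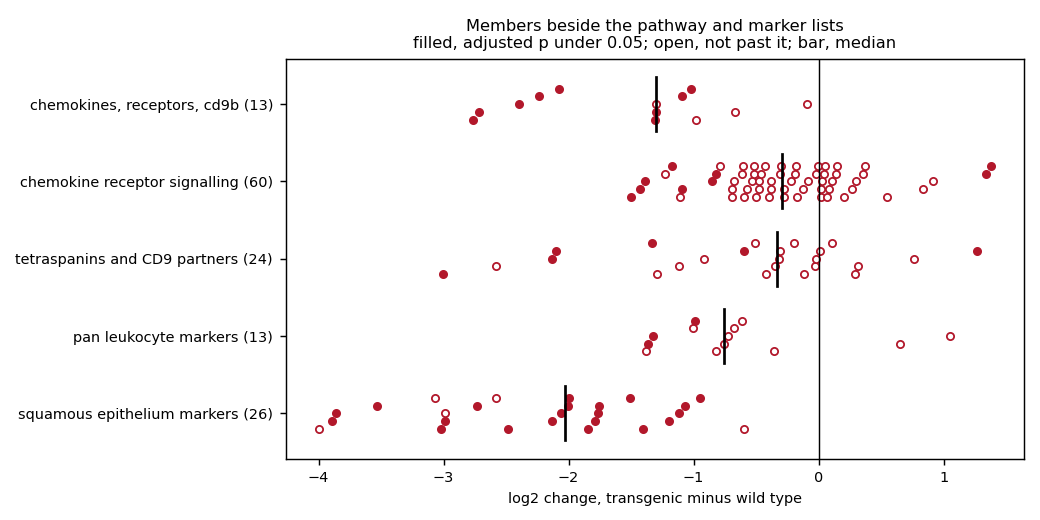
Log2 change, transgenic minus wild type (horizontal axis), of each gene tested in 4 lists beside the 13 chemokine, receptor and cd9b probe sets; filled points have an adjusted p under 0.05 and bars are medians. The signalling genes centre at -0.29 and the tetraspanins and partners at -0.33, and the squamous epithelium markers centre at -2.03.

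Over the 5 arrays, the probe sets most like ccl25b, cd9b and cxcr4a were sought by the mean absolute difference of log2 values centred on their own mean. For ccl25b these were eef2l2, a gene related to elongation factor 2 (0.0291), cd9b (0.0776) and the keratin gene krt94 (0.0927). For cd9b they were ldb3a, a muscle Z-disc gene (0.0639), ccl25b (0.0776) and the cofilin gene cfl1l (0.0822). krt94, for example, read 9.66, 11.00 and 11.32 in transgenic pools, against 13.23 and 13.03 in wild-type pools, so pool 1 was the lowest there too. For cxcr4a they were the chaperone gene hsc70 (0.0532), the endoderm factor gene foxa2 (0.068) and tex9 (0.0802). foxa2 read 4.53, 4.83 and 4.96 in transgenic pools, against 7.11 and 6.30 in wild-type pools. The patterns of ccl25b and cxcr4a were farther apart (0.334). The likenesses to cxcr4a include its transgenic readings at the bound. tex9 was itself at or below the bound in 2 transgenic pools and hsc70 in 1, so their match to cxcr4a lies partly at the bound. ldb3a read 3.58 in transgenic pool 1, below the bound of 3.95, so its match to cd9b lies partly at the bound too. These likenesses are over 5 arrays in 2 groups and are descriptions.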

How the data were processed

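RNA of 3 transgenic and 2 wild-type pools was measured, 1 array each. The log2 values were deposited by the authors, 1 per probe set and array; they were made with MAS5, per the submitters' processing notes, which give no scaling target or log step. That the scale is log2 was inferred from the range, 2.23 to 13.58, and every array had a mean of 4.89. Probe sets (15502, without 115 controls) were kept if 2 or more arrays put them at or above the 40th percentile, leaving 10335. limma 3.58.1 in R 4.3.3 (lmFit, eBayes with a trend, no covariate, two-sided, Benjamini-Hochberg over all kept, threshold 0.05) compared the groups, and was tested on simulated data. Gene names are those of the platform annotation in GEO, brought up to date by Entrez identifier with RefSeq (GRCz12tu). List genes were represented by their brightest probe set, and summed levels are sums of the unlogged values. The number of arrays limits the precision.

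Genes were picked by rule. These were all chemokine, receptor and cd9b probe sets, and the 3 most alike probe sets for ccl25b, cxcr4a and cd9b. The rule also took the largest changes past the threshold in each pathway list (up to 4 per direction) and marker list (up to 3). Its picks from the intestinal, pancreas, hepatocyte and striated muscle lists were followed under the alternatives but not named in the Results. ptprc, kdrl, tp63, vil1, fabp2, mif, polr1g, mpx, cebpb, nccrp1, lyz, mmp9 and the macrophage markers that missed the threshold were added after their values were seen. The genes and lists were chosen with earlier results of these data known. Alternatives were quantile normalization, median centring, no filter, a 60th percentile filter, no trend, a robust trend, a replicate block, a threshold of 0.1 and each array left out.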

Additional observations from a re-analysis of the deposited data

How the results depend on the processing

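The number of chemokine, receptor and cd9b probe sets past the threshold was 9 of 13, all lower in transgenic pools. It was 11 after quantile normalization, 10 with no filter (of 14, the added one being ccl44, below the bound on all transgenic arrays) or a threshold of 0.1, 9 with median centring, a 60th percentile filter (of 11), no trend or a robust trend, and 3 to 8 with 1 array left out. Over all probe sets it was 2250 and ran from 979 without transgenic pool 2 to 2614 without wild-type pool 2. With the replicate number as a block it was 7, and 1866 over all, and ccl19a.1 (adjusted p = 0.241) and cxcr3.3 (0.0577) were lost. The labels do not tie equal numbers to a shared litter or day, so the numbers were not read as pairs. Deviations of same-numbered pools correlated across genes at -0.25 for number 1 and -0.13 for number 2. The deviations of 2 wild-type arrays from their mean mirror each other, so these correlations cannot decide on pairing. Of 167 values of these probe sets under alternatives, 22 lost the call (20 of them with an array left out), 6 gained it and 2 changed sign. Both sign changes were of ccl34b.1, never past the threshold, at 0.065 after quantile normalization and 0.35 without wild-type pool 1 (its range with 1 array left out was -0.54 to 0.35), and their cause was not tested. Of 45 other genes picked by the naming rule, 22 lost the call in at least 1 alternative and 0 values changed sign. The 45 include picks from the intestinal, pancreas, hepatocyte and striated muscle lists that are not named above. The digestive ones among these had changes of 8.38 (serpina1l) to 9.97 (apoa1a) and lost no call, so the tally does not describe the genes named above alone. Of 135 list medians under alternatives 34 moved beyond the spread between transgenic pools, and the medians of the erythrocyte, B cell and endothelial lists changed sign in some. The median change over all probe sets was -0.10, -0.10 after quantile normalization and -0.04 with median centring. Probe sets near the bound, such as cxcr4a in transgenic pools and ccl44, limit the size of a fold that these arrays can show.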

Other observations

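In the RefSeq table of GRCz12tu, ccl44 and ccl25b lie on the same chromosome with 3 genes between their starts, 2 of them protein coding. Both were lower in every transgenic pool than in either wild-type pool, but their values differ in kind: ccl25b stood well above the background bound on all 5 arrays, while ccl44 was above it on wild-type pool 1 alone.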
